A study of Rattus norvegicus with 4 samples.

Results

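NRF2, the transcription factor encoded by Nfe2l2, switches on enzymes that protect cells from oxidants and reactive chemicals. The set described here is Nfe2l2, Keap1, which encodes the protein that holds NRF2 in check, and 8 genes known as NRF2 targets or partners of such enzymes: Nqo1, Srxn1, Txnrd1, Prdx1, Osgin1, Abcc1, Abcc4 and Blvrb. They were picked by gene symbol, 10 of the 32883 genes in the count table, with Srxn1 (sulfiredoxin) found through its gene description because the table lists it under the placeholder AABR07054319.1. All 10 were abundant enough to be tested.

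The 4 libraries are total RNA of HSC-T6 cells, a rat hepatic stellate cell line immortalised with a viral large T antigen. In fibrosis, stellate cells become the collagen-producing cells of the liver. Of these libraries 2 came from cells with no treatment and 2 from cells given GRK1, which the series title spells out as ginsenoside Rk1, a saponin of processed ginseng. Dose, exposure time and vehicle are not in the labels. Nor is it stated that libraries sharing a treatment are separate cultures, so the p-values rest on a spread that could be technical. Every mean ± SD below has n = 2.

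In unstressed cells KEAP1 binds NRF2 and hands it to a CUL3 ubiquitin ligase for degradation. Oxidants and electrophiles modify cysteines of KEAP1, NRF2 then accumulates, pairs with a small MAF protein and binds antioxidant response elements in the promoters and enhancers of its targets. NRF2 activity is therefore set largely at the level of the protein, which RNA sequencing does not measure. In stellate cells oxidant defence is of interest because reactive oxygen accompanies their activation, and because several NRF2 targets limit the lipid peroxidation of ferroptosis, a subject of the series title.

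The comparison asked which of these transcripts differed between Rk1-treated and untreated cells. The transcripts of 4 members rose with Rk1, namely Nqo1, Abcc4, Srxn1 and Prdx1, and 0 fell. The transcripts of NRF2 and KEAP1 themselves did not pass the test, and neither did Txnrd1, Osgin1, Abcc1 or Blvrb. Among all 12316 genes tested, 11.5% were called higher and 10.5% lower (edgeR quasi-likelihood test, Benjamini-Hochberg adjusted p under 0.05), 22.0% in all. The median log2 fold change of the members was 0.03, against 0.00109 over all genes tested. The 4 called members were called in all 13 alternative analyses, and the other members in none of them. The members were chosen with results of these data known, so their count is a description.

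**Figure D1:**
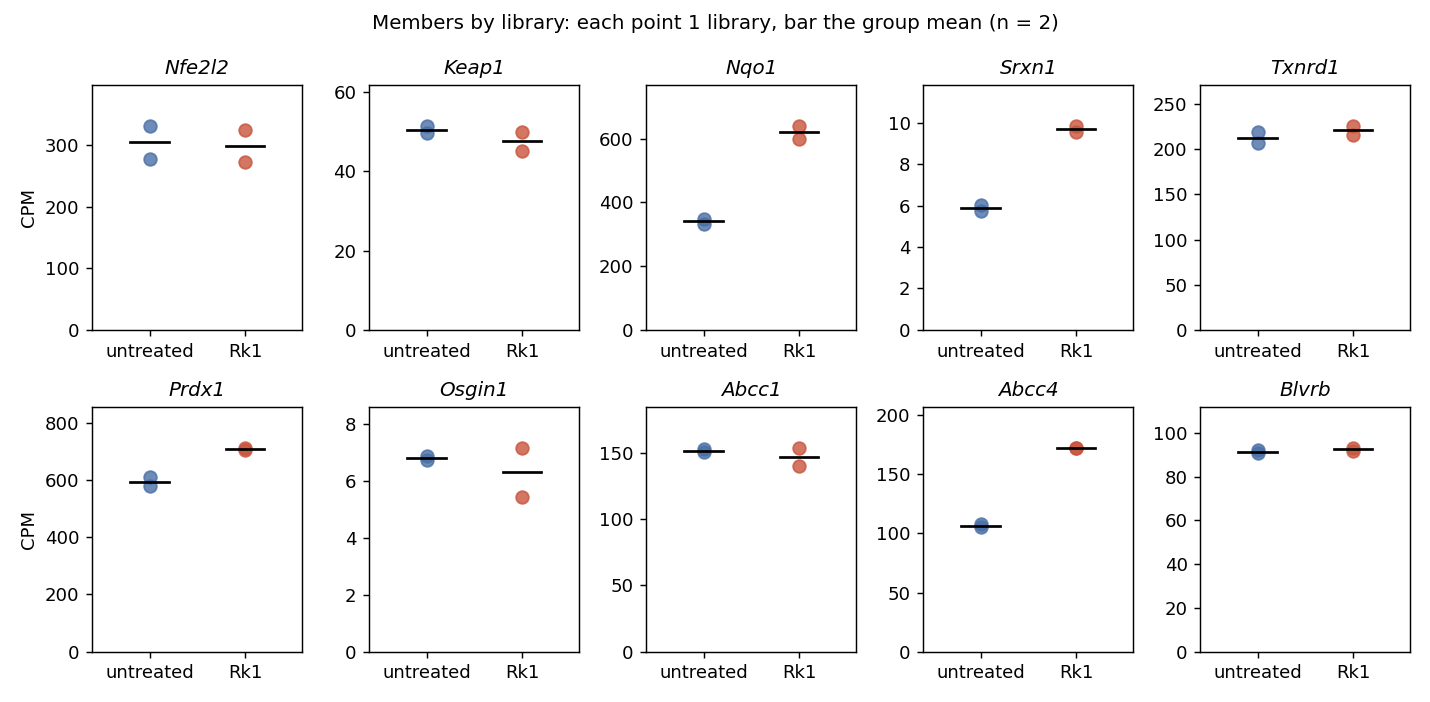
CPM (vertical axes from 0) of the 10 members in the 2 untreated (blue) and 2 Rk1 (red) libraries; each point is a library and the bar is the group mean. Nqo1, Srxn1, Prdx1 and Abcc4 have Rk1 points above both untreated points, and the points of the other 6 genes overlap.

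Total counts ran from 18008586 to 20430930 per library, and 3 counts correspond to at most 0.167 CPM (the count scaled by library total). The collagen genes Col1a1 and Col3a1 and the fibroblast filament gene Vim were abundant. Col1a1 was at 12480 and 11610 CPM untreated and at 8060 and 7964 CPM with Rk1. Col3a1 was at 4935 and 4750 CPM untreated and at 2593 and 2658 CPM with Rk1. Of the other stellate markers, Pdgfrb was at 25.5 to 36.7 CPM and Des at 5.05 to 7.45 CPM over the libraries. Lrat had 0 counts in every library, and Acta2 had 73 and 56 counts untreated and 16 and 6 with Rk1. Of 14 matched markers of hepatocytes, leukocytes, endothelium and bile duct, Cd68 reached 1.03 to 1.67 CPM, and no other marker exceeded 4 counts in any library. Pecam1 was not matched in the table.

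Nfe2l2 (ENSRNOG00000001548, Rnor_6.0 chromosome 3, 62497571 to 62524996, minus strand) encodes NRF2. It stood at 277 and 331 CPM in the untreated libraries and at 272 and 324 CPM in the Rk1 libraries. Each group thus held a lower and a higher library, the groups overlapped almost completely, and the 2 libraries differed by 1.19-fold within either group. The Rk1 mean was 0.979 times the untreated mean, with a log2 fold change of -0.03 ± 0.10 (SE, 95% interval -0.27 to 0.21, adjusted p = 0.87). The higher library was replicate 2 in both groups. The sign for Nfe2l2 depended on the library, being 0.10 with untreated replicate 2 left out and 0.09 with Rk1 replicate 1 left out. Those fits left the lower untreated library or the higher Rk1 library alone in its group. With a replicate block the log2 fold change was -0.03 ± 0.04 (SE). A change of up to about 1.15-fold upward lies within the interval of the main fit.

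Keap1 (ENSRNOG00000020878, chromosome 8, 22250518 to 22259779, minus strand) encodes the cysteine-rich sensor that targets NRF2 for degradation. Its values were 49.6 and 51.5 CPM untreated and 45.2 and 50.1 CPM with Rk1. The lowest library was an Rk1 one, but the other Rk1 library fell between the untreated values. The log2 fold change was -0.09 ± 0.06 (95% interval -0.23 to 0.06, adjusted p = 0.38), so a fall larger than to 0.851 of the untreated level lies outside the interval. Counted per kilobase of exon, Nfe2l2 transcripts outnumbered Keap1 transcripts 7.67 and 8.81 to 1 in the untreated libraries and 8.25 and 8.86 to 1 with Rk1, ranges that overlapped.

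Nqo1 (ENSRNOG00000012772, chromosome 19, 38422164 to 38437180, plus strand) encodes the NAD(P)H quinone reductase that converts quinones straight to hydroquinones, bypassing the radical semiquinone, and is the most widely used readout of NRF2. It was at 349 and 333 CPM in the untreated libraries and at 641 and 599 CPM in the Rk1 libraries. Both treated libraries lay far above both untreated ones, with little spread inside either group. From 341 ± 11.5 to 619.7 ± 29.7 CPM (mean ± SD), the transcript rose 1.82-fold (log2 fold change 0.86 ± 0.05, 95% interval 0.75 to 0.98, edgeR adjusted p = 6.9e-05). This was the largest rise among the members. In the alternative analyses its log2 fold change ran from 0.81 to 0.91. Nqo2, the paralog that uses another cofactor, had 0 counts in every library. At the smallest library total this allows a level of at most 0.167 CPM.

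The 3 tested genes at 20 CPM or more whose centred log2 CPM profile over the 4 libraries lay closest to that of Nqo1, among 7570 compared, were Pgk1, Aldoa and Gem. Pgk1 and Aldoa are glycolytic enzymes and Gem is a small GTP-binding protein. Their Euclidean distances to Nqo1 were 0.0272, 0.0368 and 0.0454 on the log2 scale. With 4 libraries the profile is little more than the size of the change, which was 0.86 ± 0.04 for Pgk1, 0.89 ± 0.05 for Aldoa and 0.86 ± 0.08 for Gem.

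The next members handle peroxides. Prdx1 encodes a peroxiredoxin that destroys hydrogen peroxide with a reactive cysteine, Txnrd1 encodes the selenoprotein that keeps thioredoxin, its electron donor, reduced with NADPH, and Srxn1 encodes sulfiredoxin, which rescues peroxiredoxins whose cysteine has been over-oxidised. Prdx1 and Srxn1, enzyme and repair enzyme, rose together here, while Txnrd1 did not pass the test.

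Srxn1 (ENSRNOG00000031167, chromosome 3, 147609095 to 147632801, plus strand) is a low-abundance member. It was at 6.01 and 5.71 CPM in the untreated libraries, from 122 and 104 counts, and at 9.85 and 9.54 CPM with Rk1, from 177 and 174 counts. The groups were well apart and the libraries within each were close. The rise was 1.65-fold (log2 fold change 0.72 ± 0.12, 95% interval 0.44 to 1.01, adjusted p = 0.0060).

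Prdx1 (ENSRNOG00000017194, chromosome 5, 135536413 to 135551990, plus strand) is the most abundant member. Its values were 577.5 and 608.5 CPM untreated and 713 and 703 CPM with Rk1. Both Rk1 libraries exceeded the higher untreated one. The rise was small at 1.19-fold (0.26 ± 0.04, 95% interval 0.16 to 0.35, adjusted p = 0.0059), and the adjusted p stayed at or under 0.034 in every alternative. Per kilobase of exon there were 79.2 and 87.7 Prdx1 transcripts for each Srxn1 transcript in the untreated libraries, and 59.6 and 60.6 with Rk1. The ratio was lower in both treated libraries than in either untreated one. Its size depends on the deposited exon lengths, 889 bases for Prdx1 and 732 for Srxn1.

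Txnrd1 (ENSRNOG00000009088, chromosome 7, 26946125 to 26984400, minus strand) was at 218 and 207 CPM untreated and at 226 and 215 CPM with Rk1. The groups overlapped. The log2 fold change was 0.05 ± 0.05 (95% interval -0.06 to 0.17, adjusted p = 0.48), and a rise beyond 1.12-fold lies outside that interval. Its protein's substrate, thioredoxin Txn1, stood at 188 and 194 CPM untreated and at 182 and 207 CPM with Rk1 and did not pass either (0.03 ± 0.06, adjusted p = 0.81).

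The promoters of Srxn1 and Prdx1 are shown as examples, as both genes rose and each window holds a match to a response element core. The window of Abcc4, which also rose, holds a match too (TGAGAGCGC) and is not shown. The core TGACNNNGC was searched on both strands of the RefSeq windows of assembly GRCr8, which run from 250 bases before to 50 bases after a gene's start, and all 10 members matched a window (11 windows, as Txnrd1 has 2). It matched the Prdx1 window and not the Srxn1 window, whose matches are to TGAGNNNGC, a core added after the sequences had been seen. Capitals mark every match of either core, read on the printed strand, so a match on the other strand appears as its reverse complement. The Srxn1 window is chr3:161064562-161064861 (plus strand) and the Prdx1 window is chr5:135383656-135383955 (plus strand).
Srxn1: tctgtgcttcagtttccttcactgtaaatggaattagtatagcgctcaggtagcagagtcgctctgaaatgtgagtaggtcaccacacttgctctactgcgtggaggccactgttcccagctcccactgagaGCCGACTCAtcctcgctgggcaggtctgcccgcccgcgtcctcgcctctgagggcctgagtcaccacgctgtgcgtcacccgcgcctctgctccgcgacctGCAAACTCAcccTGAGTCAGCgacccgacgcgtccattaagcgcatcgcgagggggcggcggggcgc
Prdx1: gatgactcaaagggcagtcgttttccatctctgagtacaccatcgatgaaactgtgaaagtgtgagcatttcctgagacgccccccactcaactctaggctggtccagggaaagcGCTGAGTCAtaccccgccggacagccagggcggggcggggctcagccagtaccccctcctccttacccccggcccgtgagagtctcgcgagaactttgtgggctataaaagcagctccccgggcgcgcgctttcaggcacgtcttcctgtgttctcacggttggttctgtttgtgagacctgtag

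The Prdx1 match reads TGACTCAGC on the strand opposite to the gene, between 135 and 127 bases before the start. In the Srxn1 window the match nearest the start reads TGAGTCAGC on the gene's strand, from 5 bases before the start to the base numbered 4 after it, and the others read TGAGTTTGC and TGAGTCGGC on the opposite strand. The first 7 letters of TGACTCAGC and TGAGTCAGC are also the binding sequence of AP-1 factors. TGACNNNGC was present in 3 of the 11 member windows, those of Nfe2l2, Prdx1 and Txnrd1, against 12.1% of all 33469 RefSeq windows and 14.7% of the 10013 windows of tested genes. TGAGNNNGC was present in 3, those of Srxn1, Abcc4 and Blvrb, against 17.2% of all windows. Genes with a match thus include members that rose and members that did not pass the test, and Nqo1, Keap1, Osgin1 and Abcc1 had neither core within these windows. Among windows of genes called higher, 18.4% held TGACNNNGC, and among those of genes called lower, 13.1%. For TGAGNNNGC these shares were 21% and 20.8%, close to the 20% of all tested windows. A match is a run of letters and was not tested as a binding site.

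**Figure D2:**
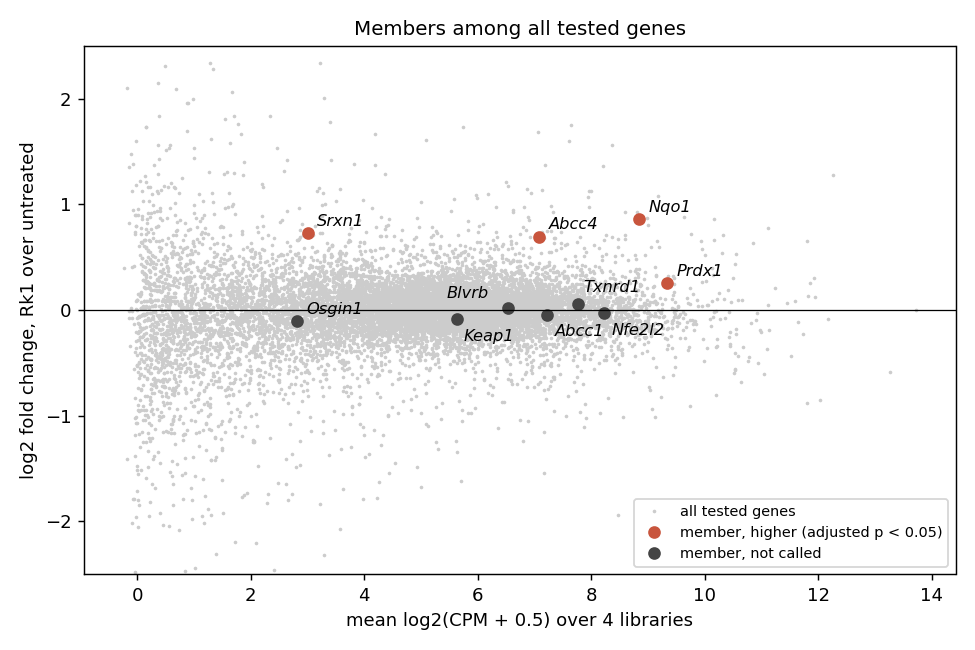
Log2 fold change (vertical axis, Rk1 over untreated) against mean log2(CPM + 0.5) over the 4 libraries (horizontal axis) for all tested genes (grey) and the 10 members (red where called higher, dark where not called); 49 genes lie beyond 2.5 on the vertical axis and are not drawn. The 4 called members span low abundance (Srxn1) to high abundance (Prdx1), and the other 6 lie between -0.11 and 0.05.

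Osgin1 (ENSRNOG00000014948, chromosome 19, 52077109 to 52085496, plus strand) encodes an oxidant-induced inhibitor of cell growth. Its untreated libraries held 137 and 125 counts and its Rk1 libraries 98 and 131, or 6.745 and 6.87 CPM against 5.45 and 7.18 CPM. The Rk1 libraries gave both the lowest and the highest value. The log2 fold change was -0.11 ± 0.17 (95% interval -0.49 to 0.28, adjusted p = 0.69) and turned to 0.08 without Rk1 replicate 1. Changes between 0.71-fold and 1.21-fold lie within the interval of the main fit. Its paralog Osgin2 was at 14.9 and 14.7 CPM untreated and at 12.7 and 15.0 CPM with Rk1, also overlapping (adjusted p = 0.59).

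Abcc1 and Abcc4 encode the exporters MRP1 and MRP4. Abcc1 (ENSRNOG00000022305, chromosome 10, 549883 to 672196, minus strand) pumps glutathione conjugates, leukotrienes and oxidised glutathione out of the cell. It was at 151 and 153 CPM untreated and at 154 and 139.9 CPM with Rk1, with the Rk1 libraries on either side of the untreated ones. It did not pass (log2 fold change -0.04 ± 0.06, 95% interval -0.17 to 0.09, adjusted p = 0.62), and was 0.03 without Rk1 replicate 2.

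Abcc4 (ENSRNOG00000010064, chromosome 15, 103696557 to 103927592, minus strand) exports cyclic nucleotides, prostaglandins and bile acids. Its values were 105 and 108 CPM in the untreated libraries and 172 and 173 CPM in the Rk1 libraries. The libraries within each group were nearly equal and the groups lay well apart. The transcript rose 1.62-fold (0.69 ± 0.04, 95% interval 0.59 to 0.80, edgeR adjusted p = 1.0e-04), and its log2 fold change ran from 0.67 to 0.70 over the alternatives. The intervals of Abcc1 and Abcc4 do not meet. Per kilobase of exon, Abcc4 stood at 0.716 and 0.723 of the Abcc1 level in the untreated libraries and at 1.14 and 1.26 of it with Rk1, so the order of the exporters was reversed in both treated libraries.

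Blvrb (ENSRNOG00000024410, chromosome 1, 84256159 to 84274075, plus strand) encodes an NADPH-dependent reductase of flavins and of biliverdin, a product of heme breakdown. It was at 90.9 and 92.1 CPM untreated and at 91.7 and 93.3 CPM with Rk1. The 4 libraries agreed closely and the groups overlapped. With a log2 fold change of 0.02 ± 0.04 (95% interval -0.09 to 0.12, adjusted p = 0.84), changes outside 0.941-fold to 1.09-fold lie beyond the interval. Upper-quartile scaling gave -0.01.

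Ranked by level per exon length (FPKM, here CPM divided by the deposited exon length in kilobases), the members spanned more than 2 orders of magnitude. The order depends on those lengths, whose completeness was not tested. In the untreated libraries the order ran from Prdx1 at 667 ± 24.7 FPKM through Nqo1 at 216 ± 7.28, Nfe2l2 at 132 ± 16.5, Blvrb at 80.5 ± 0.71, Txnrd1 at 62.0 ± 2.4, Abcc1 at 33.0 ± 0.33, Abcc4 at 23.8 ± 0.38 and Keap1 at 16.0 ± 0.44 to Srxn1 at 8.01 ± 0.28 and Osgin1 at 3.35 ± 0.042. No neighbours in that order overlapped in their untreated library values. With Rk1 the order differed only in Abcc4, at 38.5 ± 0.080 FPKM, standing above Abcc1, at 32.0 ± 2.2, and again no neighbours overlapped.

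**Figure D3:**
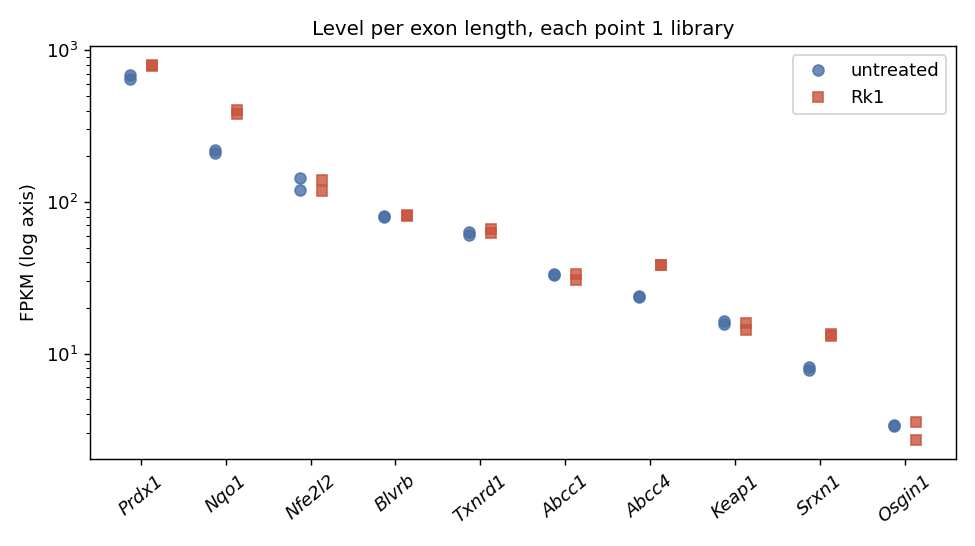
Level per exon length (FPKM, log axis) of the 10 members, ordered by their untreated mean; circles are untreated and squares Rk1 libraries. Only Abcc4 and Abcc1 change places, from 23.8 and 33.0 FPKM untreated to 38.5 and 32.0 FPKM with Rk1.

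Non-overlap alone says little with 2 libraries a group. The Rk1 values lay wholly above the untreated ones in 4 of 10 members, those that were called, and wholly below in 0, while over all tested genes the shares were 32.1% and 30.9%.

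The paralogs of the members were set beside them. Of the 6 peroxiredoxins tested, Prdx1 was called higher (16.7%) and 0 were called lower, against 11.5% and 10.5% of all genes tested. Prdx4, of the endoplasmic reticulum, had a log2 fold change of -0.13 ± 0.04 (adjusted p = 0.063), mitochondrial Prdx3 of -0.15 ± 0.06 (adjusted p = 0.11) and Prdx6 of -0.10 ± 0.04 (adjusted p = 0.16). Their intervals and those of Prdx2 and Prdx5 reach up to 0.12 at most, under the lower bound of 0.16 for Prdx1. Prdx4 was called lower with robust dispersions and with upper-quartile scaling, and Prdx3 without Rk1 replicate 2.

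Among thioredoxin reductases the member Txnrd1 did not pass while Txnrd3, an enzyme best known from testis, rose from 6.40 and 6.59 CPM to 9.01 and 10.6 CPM (0.59 ± 0.13, adjusted p = 0.018). That call was lost with DESeq2 and when any library other than Rk1 replicate 1 was left out, with adjusted p up to 0.087. Mitochondrial Txnrd2 was at 11.2 and 12.3 CPM untreated and at 15.6 and 13.9 CPM with Rk1 (0.33 ± 0.11, adjusted p = 0.071). With robust dispersions Txnrd2 was called higher. The interval of Txnrd1 (-0.06 to 0.17) lies below that of Txnrd3 (0.28 to 0.90) and overlaps that of Txnrd2 (0.07 to 0.58). Per exon length, Txnrd1 at 62.0 FPKM far exceeded Txnrd2 at 6.0 and Txnrd3 at 2.32 FPKM in untreated cells.

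Of 12 ABCC genes sought, 10 were matched and 6 tested, and 2 rose (33.3%), against 11.5% of all genes tested. Beside Abcc4, the cyclic nucleotide exporter Abcc5 rose from 75.6 and 72.1 CPM to 95.1 and 92.2 CPM (0.34 ± 0.05, adjusted p = 0.0031), in every alternative too. Its interval, 0.23 to 0.46, lies below that of Abcc4. Abcc3, a conjugate exporter, was at 26.3 and 26.3 CPM untreated and at 27.7 and 26.7 CPM with Rk1 (adjusted p = 0.67). In the heme branch, the heme oxygenase gene Hmox1 rose by 0.98 ± 0.08. The constitutive heme oxygenase Hmox2 (0.14 ± 0.06, adjusted p = 0.15) did not pass. Neither did the biliverdin reductase genes Blvra (-0.14 ± 0.08, adjusted p = 0.25) and Blvrb.

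**Figure D4:**
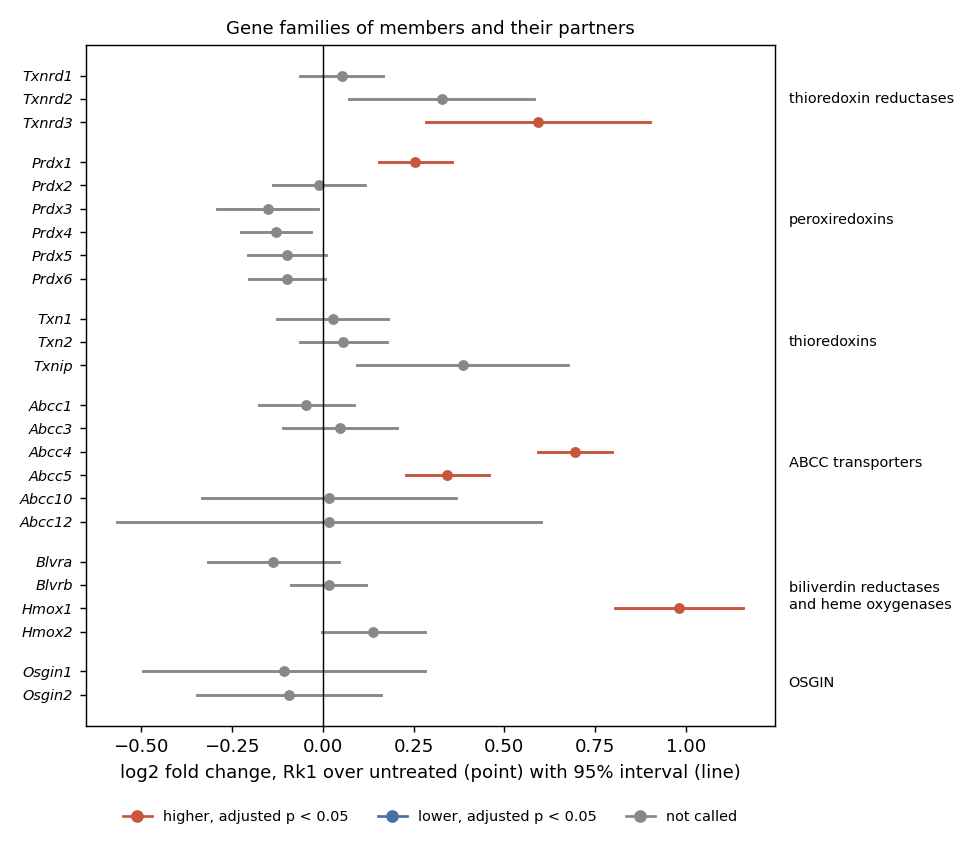
Log2 fold change, Rk1 over untreated (horizontal axis), of tested genes in 6 families that hold members or their partners (Nqo1, Srxn1, Nfe2l2 and Keap1 are not drawn); points are estimates, lines 95% intervals, red called higher and grey not called. Of the genes drawn, Prdx1, Abcc4, Abcc5, Txnrd3 and Hmox1 were called higher and 0 were called lower.

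Other genes of the NRF2 pathway were taken from a list arranged by role. Of 50 listed genes 49 were matched (Pgd was not) and 45 tested, of which 19 rose (42.2%) and 2 fell (4.44%), against 11.5% and 10.5% of all genes tested, with a median log2 fold change of 0.09 against 0.00109 over all genes. Over the 13 alternatives 12 of the risen genes and 1 of the fallen kept their call, and the other 8 lost it in at least 1. Without untreated replicate 2 the list had 12 higher and 1 lower.

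Among 8 partners, relatives and repressors of NRF2, 5 (62.5%) rose and 0 fell, against 11.5% and 10.5% of all genes tested. Bach1, a heme-sensitive repressor that competes with NRF2 for response elements, went from 21.3 and 20.6 CPM to 31.9 and 32.2 CPM (0.61 ± 0.07, adjusted p = 0.0010). Nfe2l1, the NRF2 relative that controls proteasome genes, rose by 0.27 ± 0.05 (adjusted p = 0.011). Mafg, a small MAF partner, rose by 0.20 ± 0.05 (adjusted p = 0.028), and Maff, named after its values were seen, by 0.53 ± 0.15 (adjusted p = 0.045). Nfe2, from 21 and 25 counts to 38 and 51, rose by 1.03 ± 0.28 (adjusted p = 0.036). The calls of Nfe2, Mafg and Maff were lost with DESeq2 and without untreated replicate 2, among other settings, and those of Bach1 and Nfe2l1 in none.

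Of 9 genes for NRF2 turnover, 2 (22.2%) rose and 0 fell, against 11.5% and 10.5% of all genes tested. Sqstm1, the autophagy receptor p62 that can sequester KEAP1 and is itself an NRF2 target, rose from 421 and 403 CPM to 583 and 601 CPM (0.52 ± 0.04, adjusted p = 3.0e-04). Gsk3b, a kinase that marks NRF2 for another ubiquitin ligase, rose by 0.19 ± 0.05 (adjusted p = 0.023), and lost its call with DESeq2 and without untreated replicate 2, Rk1 replicate 1 or Rk1 replicate 2. Syvn1, a ubiquitin ligase of the endoplasmic reticulum, was at -0.16 ± 0.05 (adjusted p = 0.075) and was called lower with upper-quartile scaling. Cul3, the scaffold of the KEAP1 ligase, did not pass, at 159 and 171 CPM untreated and 169.6 and 165.5 CPM with Rk1 (adjusted p = 0.81). It is named here after its values were seen.

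Of 10 glutathione genes tested, 4 (40%) rose and 0 fell, against 11.5% and 10.5% of all genes tested. The 4 were glutathione reductase Gsr (0.49 ± 0.05, adjusted p = 5.3e-04) and the transferases Mgst1 (0.33 ± 0.04, adjusted p = 0.0020), Gstp1 (0.25 ± 0.05, adjusted p = 0.014) and Gstm1 (0.34 ± 0.09, adjusted p = 0.033). Gstp1 and Gstm1 lost their calls without untreated replicate 2 or Rk1 replicate 1, Gstm1 also without untreated replicate 1, and Gstm1 has close paralogs that could share reads. The synthesis genes Gclc (0.16 ± 0.06, adjusted p = 0.098) and Gclm (0.05 ± 0.05, adjusted p = 0.49), both named after their values were seen, did not pass. Nor did the cystine transporter gene Slc7a11, likewise named (-0.23 ± 0.12, adjusted p = 0.21), and its groups overlapped. Over the alternatives its log2 fold change ran from -0.41 to -0.07, and it was called lower without Rk1 replicate 2 (-0.41).

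Of 4 tested genes of NADPH supply 3 (75.0%) rose, among them malic enzyme Me1 (0.61 ± 0.05, adjusted p = 2.2e-04) and transketolase Tkt (0.51 ± 0.04, adjusted p = 3.7e-04), both in every alternative too, while the transaldolase gene Taldo1 did not pass (-0.03 ± 0.05, adjusted p = 0.72). Of 5 heme and iron genes 3 (60.0%) rose and 0 fell. The shares over all genes tested, for both of these roles, were 11.5% higher and 10.5% lower. Hmox1 went from 118 and 104 CPM to 230.5 and 208 CPM (adjusted p = 2.2e-04) and Ftl1, a ferritin light chain row, by 0.89 ± 0.12 (adjusted p = 0.0023). Ferritin heavy chain Fth1 rose by 0.14 ± 0.03 (adjusted p = 0.016), a call lost without either untreated library and with no low-count filter. The heme transporter gene Slc48a1 was at -0.12 ± 0.05 (adjusted p = 0.13) and did not pass.

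Of 8 detoxification genes tested 2 rose and 2 fell, 25.0% each way, against 11.5% and 10.5% of all genes tested. Akr1b8, an aldo-keto reductase (0.53 ± 0.05, adjusted p = 6.7e-04), and Ugt1a6, a glucuronosyltransferase (0.39 ± 0.05, adjusted p = 0.0016), rose. Aldh3a1, an aldehyde dehydrogenase, fell from 42.5 and 42.5 CPM to 31.6 and 26.4 CPM (-0.55 ± 0.09, adjusted p = 0.0044), in every alternative too. Epoxide hydrolase Ephx1 fell by 0.38 ± 0.11 (adjusted p = 0.047), a call lost in 6 of the 13 alternatives, among them DESeq2 and leaving out Rk1 replicate 1 or either untreated library.

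**Figure D5:**
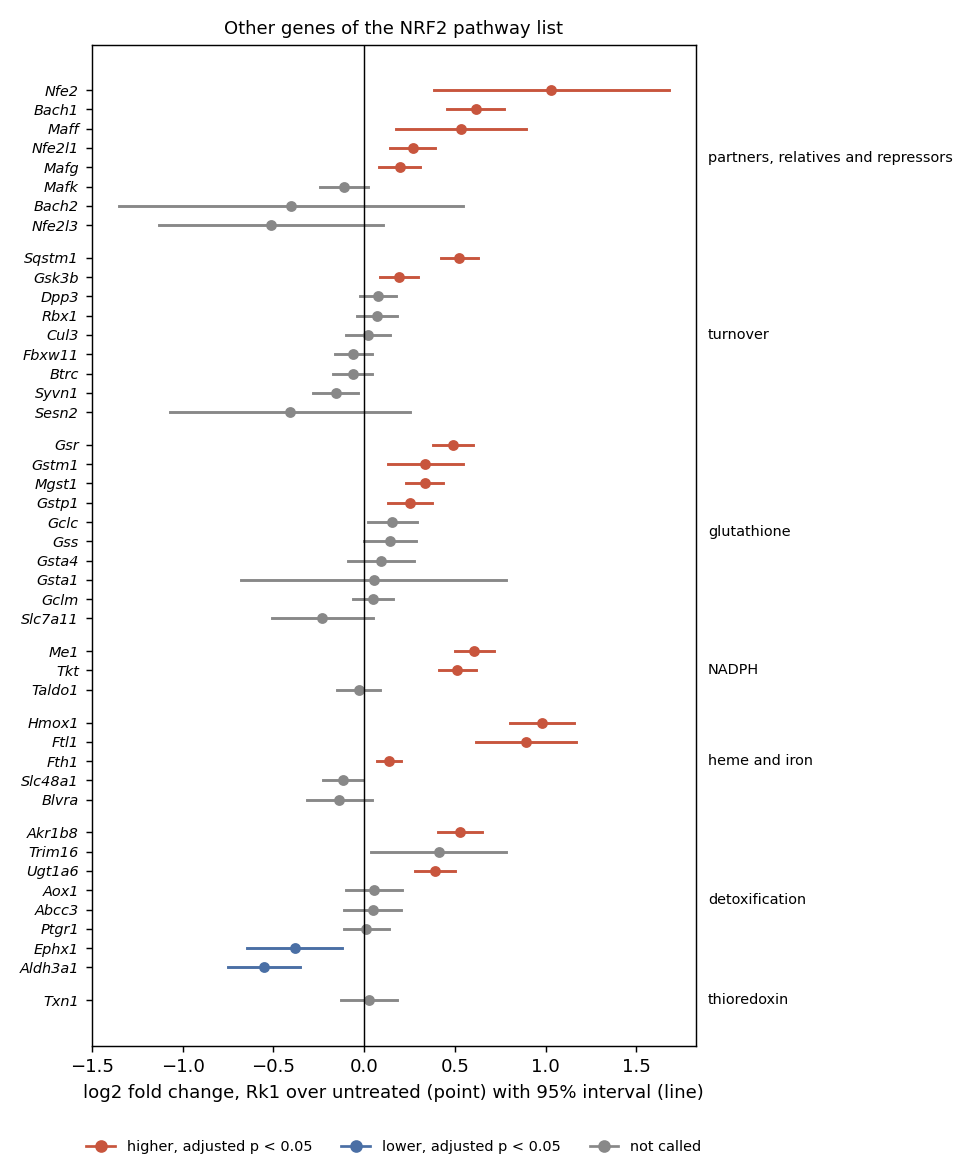
Log2 fold change, Rk1 over untreated (horizontal axis), of 44 of the 45 tested genes of the pathway list by role; points are estimates, lines 95% intervals, red called higher, blue called lower and grey not called. Risen genes occur in every role but the single thioredoxin gene, and the 2 fallen genes are both detoxification enzymes.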

How the data were processed

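RNA was measured in 4 libraries grouped by the treatment label. The authors deposited raw counts per Ensembl gene, with symbols, exon lengths and Rnor_6.0 positions per the file headers. Per the submitters' processing notes, HISAT2 and HTSeq were used. The sources used here state no version, strand setting or rule for reads with several matches. The exon lengths, another deposited column, served for FPKM.

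Counts were filtered with edgeR 4.0.16 (filterByExpr, minimum count 10, minimum total 15), leaving 12316 of 32883 genes, scaled by TMM (factors 0.994 to 1.01) and tested with the two-sided quasi-likelihood F-test, group as the only term, 2 residual degrees of freedom, Benjamini-Hochberg adjustment over all tested genes and a threshold of 0.05. "Rose" and "fell" mean called by this test. The SE is the log2 fold change over the square root of F. The 95% intervals use the test's degrees of freedom. Neither pair of same-group libraries agreed within counting noise (chi-square over its degrees of freedom 4.57 untreated, 4.67 with Rk1). The steps were tested on simulated data. Floors of 3 counts cover counting error only. The 13 alternatives used DESeq2 1.42.0, limma 3.58.1 (voom), robust dispersions, other scalings and filters, a replicate block, and each library left out.

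The members, lists and tests were chosen with earlier results of these data known. Named genes were all members, at most the 4 of each role with the smallest adjusted p (every gene of a role with 5 or fewer), and the 3 genes most like Nqo1, except where said to be named after their values were seen. The values of 1 gene of the pathway list are not reported here; the counts include it.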

Additional observations from a re-analysis of the deposited data

How the results depend on the processing

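The 4 called members kept their direction and call in all 13 alternatives, and no other member was called in any. Among uncalled members the sign turned when a library was left out for Nfe2l2 (-0.159 without Rk1 replicate 2, 0.091 without Rk1 replicate 1 and 0.096 without untreated replicate 2), Osgin1 (-0.318 without Rk1 replicate 2 to 0.079 without Rk1 replicate 1) and Abcc1 (-0.115 without Rk1 replicate 1 to 0.025 without Rk1 replicate 2). With upper-quartile scaling it turned for Blvrb (-0.011). The cause was not tested.

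Genes called in all numbered 2711, 1712 with DESeq2, and 1710 (without untreated replicate 2) to 2046 when a library was left out. Called pathway genes numbered 21, and 13 (without untreated replicate 2) to 19 when a library was left out. Leaving out a library leaves a group with a lone sample, assumed to vary like the other group.

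The replicate block gave 3220 called genes, 4 called members and 24 called pathway genes (20 higher, 4 lower). It added calls for Sesn2 (-0.42, adjusted p = 0.0018), Slc7a11 (-0.24, adjusted p = 0.011) and Gclc (0.16, adjusted p = 0.034) in that list, and outside it for Prdx3 (lower) and Txnip (higher). Sesn2, named after its values were seen, did not pass in the main fit (-0.41 ± 0.28, adjusted p = 0.35). It was at 67.7 and 109.9 CPM untreated and at 48.1 and 85.3 CPM with Rk1, groups that overlapped. The deviations of same-numbered libraries correlated at 0.0801 across genes, and the labels tie the numbers to nothing shared, so they were not treated as pairs. Scaling moved the median of all genes to between -0.0263 and 0.00754 on the log2 scale. Depth limits Srxn1 and Osgin1, with 98 to 177 counts per library.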

Other observations

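The row named Ftl1, on chromosome 5, held only 1.26% of the reads of the 4 table rows described as ferritin light chain, a family looked at after its values were seen. The row on chromosome 1, listed as LOC100360087, held 81.8%, with 8395 and 6916 counts untreated and 15743 and 14628 with Rk1. It rose 2.11-fold (edgeR log2 fold change 1.08 ± 0.06, adjusted p = 6.2e-05). The rows on chromosomes 6 and 13 rose 2.14-fold and 2.07-fold. Rows that carry the same description can share reads, so the 4 rows cannot be taken as independent measurements.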
